A study of Mus musculus with 4 samples.

Results

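The genes described here handle haem and iron in phagocytes. They are 9 genes of the 18825 in the deposited count table, chosen by name: Cd163, Tfrc, Hmox1, Blvra, Blvrb, Slc11a1, Fth1, Ftl1 and Slc40a1. Their levels were read in each of the authors' 14 cell clusters, numbered 0 to 13. The cells were live CD45+ leukocytes from atherosclerotic aortas of Apoe-/- mice, which lack apolipoprotein E, fed a western diet for 13 weeks. All mice were of this 1 genotype and diet, the series text names 6 of them, and no source used here gives their age. The sample titles give 2 biological replicates with 2 libraries each and do not say which mice each one holds.

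Macrophages take up haemoglobin and dying red cells, open the haem ring, and then store the freed iron or send it back to the blood. CD163 takes up haemoglobin bound to haptoglobin, and the transferrin receptor (Tfrc) takes up iron carried by transferrin. Haem oxygenase 1 (Hmox1) breaks haem into iron, carbon monoxide and biliverdin, and biliverdin reductase A (Blvra) turns biliverdin into bilirubin. Blvrb is named as a biliverdin reductase too, and its action on the biliverdin that Hmox1 makes was not tested. NRAMP1 (Slc11a1) moves metal ions out of the phagosome, ferritin heavy and light chains (Fth1, Ftl1) form the shell that stores iron, and ferroportin (Slc40a1) exports it.

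Iron also controls some of these transcripts after they are made, through a hairpin called the iron-responsive element. In the leader of a ferritin or ferroportin transcript, iron regulatory proteins bound to it block translation, and in the tail of Tfrc they protect the transcript from decay. The hairpins were searched in the untranslated regions (UTRs) of the 9 genes in GENCODE M21 (GRCm38), on the sense strand. The motif was a C, any 5 bases, the loop CAGTGN and 5 more bases that pair with the 5 before the loop, G-T pairs allowed. They are shown because they mark which of these genes carry such a control, one that transcript counts of ferritin and ferroportin do not read. The capitals mark the loop of 6 bases. Fth1 and Ftl1 held 1 hairpin each in the 5′ UTR, at chr19:9982733-9982759 (plus strand) and chr7:45459780-45459806 (minus strand), and Slc40a1 held 1 at chr1:45925466-45925492 (minus strand). Tfrc held 4 in the 3′ UTR on the plus strand, at chr16:32631220-32631246, chr16:32631599-32631625, chr16:32631664-32631690 and chr16:32631711-32631737.
Fth1: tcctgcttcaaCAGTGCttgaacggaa
Ftl1: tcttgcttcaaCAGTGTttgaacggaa
Slc40a1: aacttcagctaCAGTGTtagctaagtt
Tfrc, hairpin 1: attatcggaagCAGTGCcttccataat
Tfrc, hairpin 2: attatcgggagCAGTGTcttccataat
Tfrc, hairpin 3: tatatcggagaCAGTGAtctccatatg
Tfrc, hairpin 4: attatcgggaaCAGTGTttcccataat

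The loop and stem letters matched in no searched UTR of Hmox1, Cd163, Blvra, Blvrb or Slc11a1. A single 5′ UTR and a single 3′ UTR were searched per gene, such as 129 and 570 bases in Hmox1. UTRs of its other transcripts may thus not be covered. Over all genes, 19 of 20877 (0.0910%) matched in the first 800 bases of the 5′ UTR and 92 of 21017 (0.438%) in the first 2500 bases of the 3′ UTR. Only 1 of the 21017 genes held 3 or more matches in that 3′ stretch. A match is a description of letters in the annotation, and binding was not measured.

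The table held 15893384 UMIs (unique molecular identifiers, which count transcripts rather than reads) in 3002 cells, all kept by the authors as myeloid. The 4 libraries held 236 to 1231 cells and 1698585 to 5954716 UMIs each, and shared no cell barcode. Clusters 0, 1, 2, 3, 8 and 13 are called macrophage clusters below, and clusters 4, 11 and 12 dendritic clusters. A list of 9 macrophage markers summed to between 23856 and 41532 CPM (counts scaled to a total of 1000000 UMIs) in the macrophage clusters of either replicate, against 1679 to 7770 CPM in the dendritic clusters. Cluster 10, in neither class, had 25117 and 18628 CPM, inside that macrophage range in replicate 1. At 2 times the mean of the other clusters, 6 of them passed in cluster 0 and 5 in cluster 2. Cluster 3 had 3, cluster 8 had 2, and clusters 1 and 13 had 1 each, so the class rests on the sum. Of 9 dendritic markers, 5, 4 and 5 passed in clusters 4, 11 and 12, and 0 in the macrophage clusters. In cluster 0 all 12 of 12 markers of resident macrophages reached 2 times the level averaged by the other 13 clusters, cluster 3 had 9 of them, and cluster 2 had 8 of them beside 8 of 12 inflammatory markers. Cd163 is itself on the resident list. All 12 of 12 foam cell markers passed in cluster 8, called foamy below, and 7 of 10 cavity macrophage markers in cluster 13. Cluster 1 matched no subtype. Outside both classes, cluster 5 was monocyte-like, cluster 6 carried cycling genes, cluster 7 was neutrophil-like, cluster 9 carried fibroblast genes, and cluster 10 had no name. The cells of cluster 3, cluster 8 and cluster 10 were shallow, with medians of 834, 980 and 805 UMIs, against 4404 in cluster 0. In cluster 8 the nuclear transcript Malat1 stood at 389 ± 145 CPM and in cluster 3 at 1117 ± 987 CPM, against 21559 ± 91.4 CPM in cluster 0 (SD, n = 2 biological replicates). The clusters were drawn by the authors from the same counts that are compared here, so every p-value between clusters is too small.

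A level is the CPM of raw counts added up per cluster and biological replicate. The sequencing captures transcript ends, with unequal efficiency between genes, so levels are compared between clusters and not between genes. The level of a cluster does not tell apart more cells with the transcript from more transcript per cell.

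**Figure D1:**
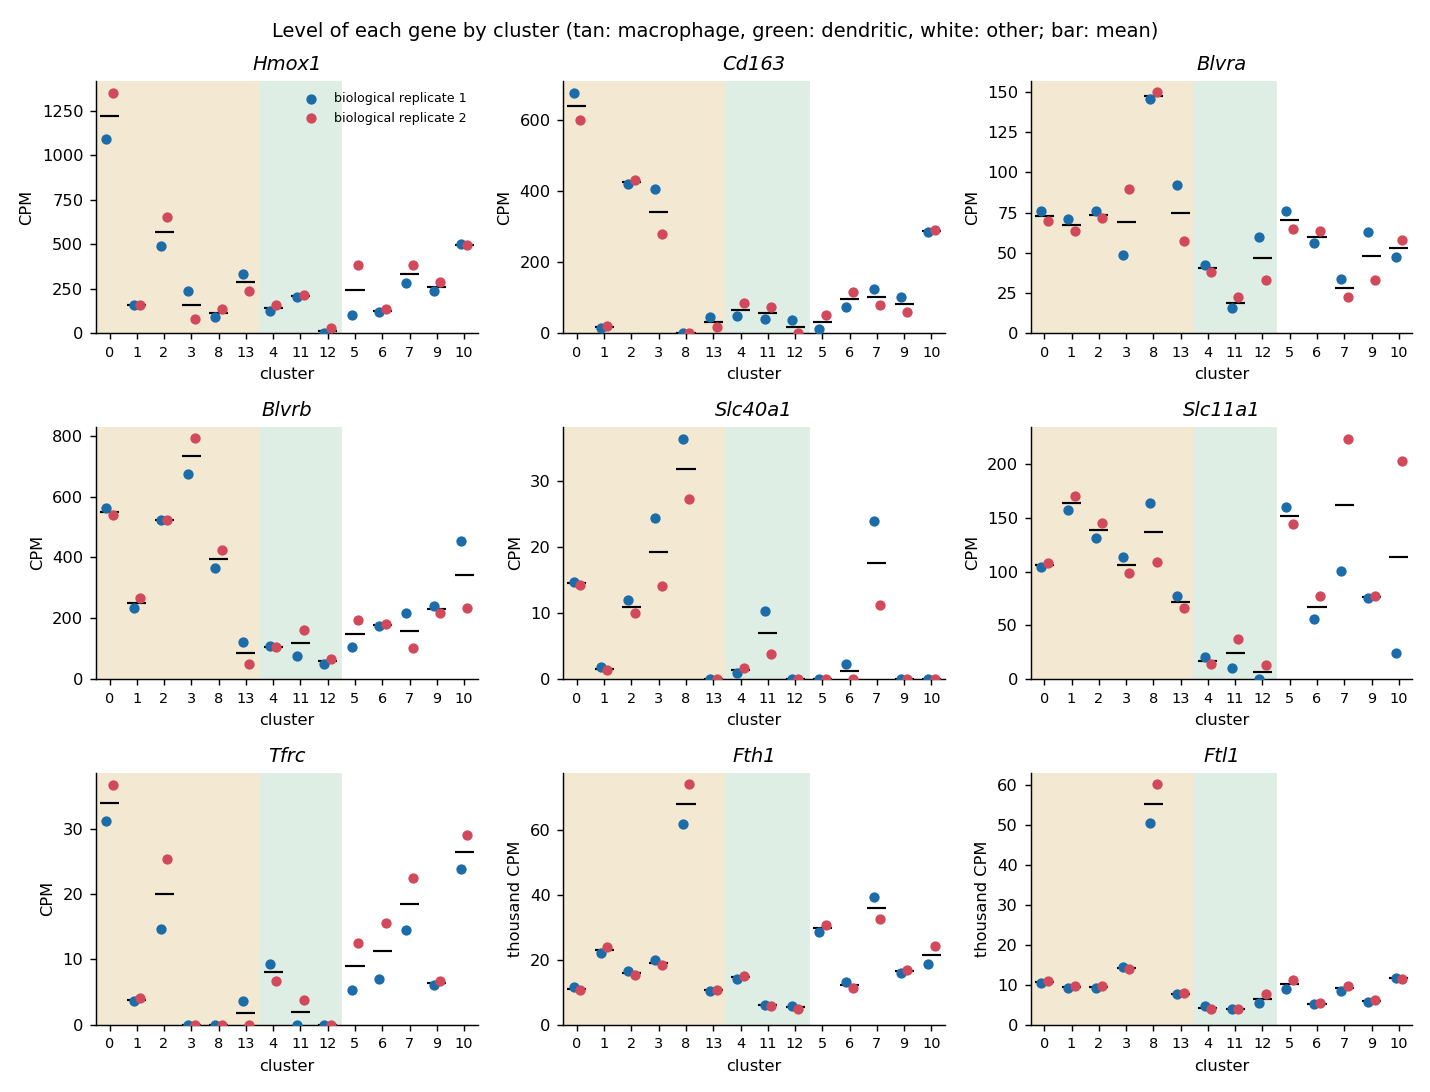
Each panel plots 1 gene, with the level in CPM (in units of 1000 CPM for Fth1 and Ftl1) on the vertical axis and the cluster on the horizontal axis. Points are the 2 biological replicates and bars their mean. Hmox1 and Cd163 are highest in cluster 0, Blvrb in cluster 3, and Fth1, Ftl1 and Blvra in cluster 8.

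The haemoglobin receptor gene was high in a few clusters. Cd163 had 677 and 602 CPM in cluster 0 (replicates 1 and 2), 421 and 431 CPM in cluster 2, 407 and 278 CPM in cluster 3, and 286 and 290.2 CPM in cluster 10. The other 10 clusters ranged from 0 to 125 CPM in either replicate. The top 4 clusters therefore stood above all others in both replicates, and cluster 3 overlapped cluster 10. Cd163 spanned the macrophage class widely: cluster 1 had 13.7 and 20.2 CPM, and cluster 8 had 0 of 128202 UMIs. A floor of 3 counts in cluster 8 is 23.4 CPM, at least 12.4-fold lower than the 291 CPM averaged by the other macrophage clusters. In cluster 13, 10 of its 14 Cd163 UMIs (71.4%) came from 1 cell.

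Shares of cells with a Cd163 UMI gave the same top 4 clusters once every cell was thinned to 500 UMIs, a number that every cell reached. Cd163 was found in 25.5% of the thinned cells of cluster 0, 15.0% of cluster 2, 11.4% of cluster 3 and 11.7% of cluster 10. The exact 95% intervals, which cover counting error only, ran from 22.2% to 29.1% in cluster 0 and from 8.14% to 15.3% in cluster 3. In the neutrophil-like cluster 7, cells not known for this receptor, the thinned share was 0.800%, on 1 of 125 cells (0.0203% to 4.38%). Cluster 1 (0.552%, on 3 cells) and cluster 5 (0.478%, on 1 cell) lay inside that interval, so these shares were not told apart from background. With all UMIs cluster 7 held 125 and 78.3 CPM of Cd163. With all UMIs the share was 70.6% in cluster 0 (median 4404 UMIs per cell) and 7.20% in cluster 7 (median 1601 UMIs). In cluster 8, 0 of 105 cells had a Cd163 UMI, and 3 cells in place of 0 would be 2.86%. That limits cells with a UMI at this depth, not cells that express the gene.

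**Figure D2:**
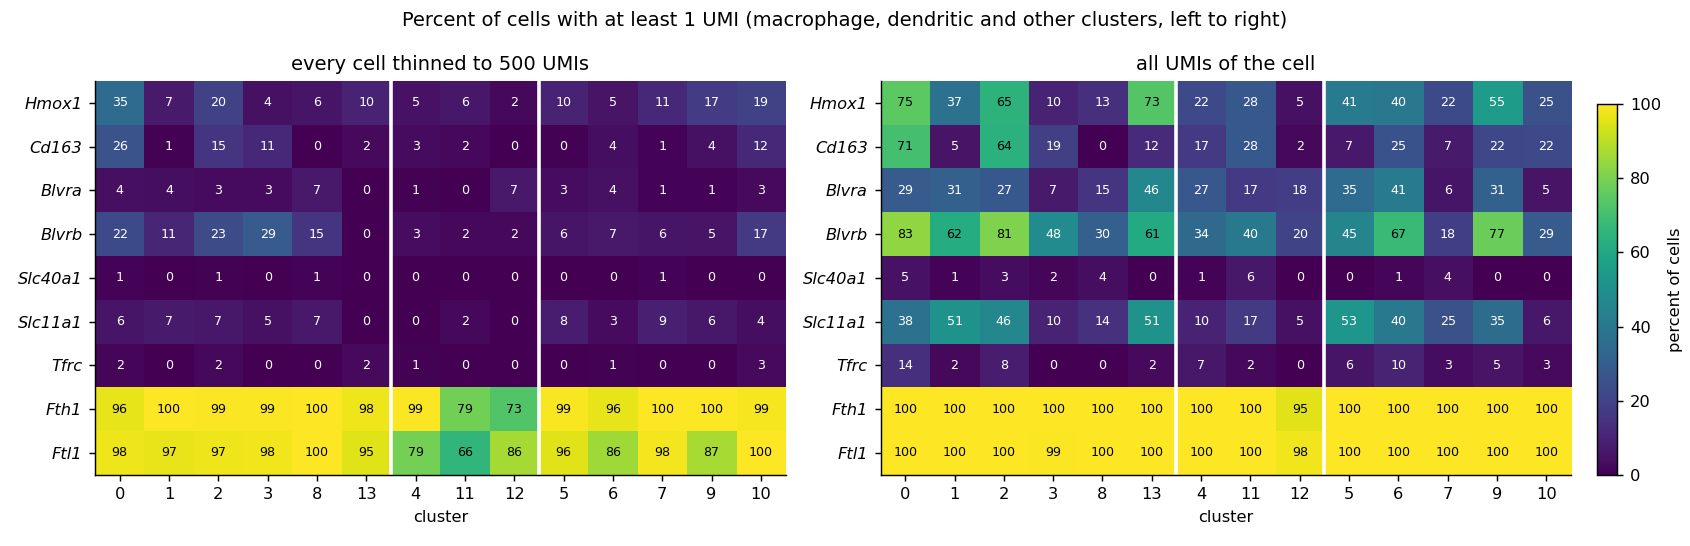
Percent of cells with at least 1 UMI of each gene (rows) in each cluster (columns, macrophage, dendritic and other clusters from left to right), with every cell thinned to 500 UMIs on the left and with all UMIs on the right. Thinning leaves Hmox1 in 34.8% of cluster 0 and 4.31% of cluster 3, and Cd163 in 25.5% and 11.4%.

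Tfrc was scarce. All cells together held 216 Tfrc UMIs, in 185 cells (6.16% of all cells). Tfrc reached 31.1 and 36.7 CPM in cluster 0, and 14.6 and 25.4 CPM in cluster 2. In cluster 10 it had 23.8 and 29.0 CPM from 1 UMI in each replicate, under the 39.3 CPM that 3 counts would make there, so cluster 10 could not be ranked. Cluster 0 lay above every other cluster except the unranked cluster 10 in both replicates. Cluster 3, cluster 8 and cluster 12 had 0 UMIs. For cluster 3 the floor of 3 counts was 8.96 CPM, so that Tfrc was at least 1.33-fold lower there than the 11.9 CPM averaged by the other macrophage clusters. The floors of cluster 8 (23.4 CPM) and cluster 12 (12.8 CPM) were too high to set it apart.

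Haem oxygenase 1 was highest in cluster 0. Hmox1 had 1091 and 1349.7 CPM in cluster 0, 487 and 652 CPM in cluster 2, and 500.4 and 493 CPM in cluster 10. Cluster 0 stood above every other cluster in both replicates, while cluster 2 and cluster 10 overlapped. Hmox1 had 80.1 to 236 CPM in cluster 3, 91.0 to 137 CPM in cluster 8 and 159 CPM in both replicates of cluster 1, which overlapped each other except cluster 8 and cluster 1. The lowest level was in the dendritic cluster 12, with 0 and 26.6 CPM from 4 UMIs in all, 3 of them in 1 cell. In the order of means, 9 of the 13 neighbouring pairs overlapped between replicates.

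Hmox1 and Cd163 split in cluster 3. Hmox1 in cluster 0 was 7.72-fold above cluster 3 (4.63-fold and 16.8-fold in replicates 1 and 2), while Cd163 was 1.87-fold above it (1.66-fold and 2.16-fold). After thinning, Hmox1 was found in 34.8% of cells of cluster 0 (95% interval 31.1% to 38.7%), 19.6% of cluster 2, 7.37% of cluster 1 and 4.31% of cluster 3 (2.37% to 7.12%). The neutrophil-like cluster 7 had 11.2%. A set of 8 early-response and heat shock genes (Fos, Jun, Junb, Egr1, Atf3, Dusp1, Hspa1a and Hspa1b), chosen after their values were seen, took 4.14% and 4.47% of UMIs in cluster 0. Cluster 2 gave them 1.93% and 1.98%, cluster 3 gave 0.129% and 0.0570%, and cluster 8 gave 0.0510% and 0.0464%. Hmox1 is itself inducible by cell stress, and the part of these genes in its order across clusters was not tested.

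Within cluster 0, cells with Cd163 also carried Hmox1 more often. At 1000 UMIs per cell, which left out 3 of its 635 cells, Hmox1 was found in 52.7% of cells with Cd163 in replicate 1 and 58.0% in replicate 2, against 38.3% and 47.2% of cells without Cd163. Blvrb did not show such a gap in cluster 0, with 36.6% and 40.5% of cells with Cd163, against 37.7% and 40.9% of cells without it. In cluster 2 both genes were more frequent beside Cd163. Hmox1 was found there in 42.1% and 32.8% of cells with Cd163, against 31.1% and 28.7% of cells without it, and Blvrb in 44.7% and 50.7%, against 37.8% and 34.4%. These shares are descriptions of cells from the same libraries and were not tested.

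The biliverdin reductases followed different clusters. Blvrb, which also reduces flavins, had 675 and 792 CPM in cluster 3, 562 and 538 CPM in cluster 0, and 523 and 524 CPM in cluster 2. Cluster 3 stood above all other clusters in both replicates, 1.33-fold above cluster 0 (1.202-fold and 1.47-fold by replicate). By library, this lead was absent in library 1-2, with 578 CPM in cluster 3 and 582 CPM in cluster 0. Libraries 1-1, 2-1 and 2-2 had 942, 692 and 888 CPM in cluster 3, against 478, 518 and 558 CPM in cluster 0. Cluster 8 (364 and 423 CPM) and cluster 10 (453 and 232 CPM) overlapped below them, and cluster 13 held 122 and 49.3 CPM, inside the 48.0 to 161 CPM of the dendritic clusters. Thinned shares gave Blvrb in 28.6% of cells of cluster 3, 23.1% of cluster 2, 22.4% of cluster 0, 16.9% of cluster 10 and 15.2% of cluster 8, against 3.26% of the dendritic cluster 4.

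Blvra varied less across clusters. It had 146 and 150.2 CPM in cluster 8, from 19 UMIs, while all other clusters lay between 15.4 and 92.1 CPM. Cluster 8 was thus above every other cluster in both replicates, 2.03-fold above cluster 0. Blvra was lowest in the dendritic cluster 11, at 15.4 and 22.4 CPM, and 11 of its 13 neighbouring pairs overlapped, so that little of the order between those ends is resolved.

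Slc11a1 was spread over the macrophage, monocyte-like and neutrophil-like clusters. It had 157 and 171 CPM in cluster 1, 161 and 144 CPM in cluster 5, 131 and 145 CPM in cluster 2, and 101 and 224 CPM in cluster 7. Cluster 7 spanned the other 3 and cluster 5 overlapped each of them, while cluster 1 lay above cluster 2. In the order of means 10 of the 13 neighbouring pairs overlapped. The dendritic clusters were apart from every macrophage cluster, with 0 to 37.4 CPM against 65.7 to 171 CPM in the macrophage clusters. Cluster 1 was 9.68-fold above cluster 4 (7.73-fold and 12.6-fold by replicate). In thinned cells Slc11a1 was found in 7.18% of cluster 1 and 7.66% of cluster 5, against 0.362% of cluster 4.

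Ferritin transcripts stood out in cluster 8. Fth1 had 61935 and 74232 CPM in cluster 8, 39502 and 32655 CPM in cluster 7, 28702 and 30692 CPM in cluster 5, and 22036 and 23976 CPM in cluster 1. The first 3 were in the same order in both replicates with no overlap, and cluster 8 was 1.89-fold above cluster 7. Fth1 was lowest in the dendritic cluster 11 (6193 and 5882 CPM) and cluster 12 (5888 and 4877 CPM). Ftl1 had 50305 and 60158 CPM in cluster 8, 14314 and 13884 CPM in cluster 3, and 11653 and 11519 CPM in cluster 10. Ftl1 in cluster 8 was 3.92-fold above cluster 3, the next cluster, and no replicate of another cluster came near it. The lowest Ftl1 was in cluster 11, at 3811 and 3982 CPM. For each of the 2 chains, 6 of the 13 neighbouring pairs overlapped, fewer than for any of the other 7 genes.

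Both chains together took 11.2% and 13.4% of the UMIs of cluster 8, against 2.20% and 2.16% of those of cluster 0. The cells of cluster 8 differed widely among themselves. In replicate 1 the ferritin share of a cell was 8.01% at the median, 3.84% at the 10th percentile and 26.7% at the 90th, with a highest cell at 52.3%. Replicate 2 had a median of 12.46%, with 4.80% and 21.97% at those percentiles and a highest cell at 46.3%. No single cell carried the level, since the top cell held 4.14% of the Fth1 UMIs and 3.74% of the Ftl1 UMIs of the cluster. The shares of Fth1 and Ftl1 ran together over the cells of cluster 8, with Spearman's rho of 0.75 over 47 cells and 0.73 over 58 cells. Cluster 3, also shallow, had 0.43 and 0.34, and cluster 0 had 0.21 and 0.16. Cluster 8 held 8841 Fth1 and 7171 Ftl1 UMIs over 105 cells, against 6339 and 4704 over 325 cells in cluster 3. Cluster 0 held 35112 and 34201 over 635 cells. Ferritin UMIs per cell were thus fewer in clusters 3 and 0, and the part of counting noise in these values was not tested. The ferritin share of a cell of cluster 8 ran against its share of foam cell markers, with rho of -0.24 and -0.35, while rho was between 0.08 and 0.41 in clusters 0, 1, 3, 5 and 7. These are descriptions over cells of the same libraries. The ferritin and marker shares of a cell are parts of the same UMI total, so a larger ferritin share leaves less room for the markers. The part of this in rho was not tested. Among the cells of clusters 0, 1, 3, 5, 7 and 8, the highest ferritin share was 55.5%, in cluster 3, whose medians were 2.94% and 2.66%.

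The mix of the chains differed more between clusters than between replicates. Ftl1 made up 44.8% of ferritin UMIs in both replicates of cluster 8 and 47.6% and 50.4% in cluster 0. Cluster 7 had 17.7% and 23.0% light chain, cluster 4 had 24.5% and 20.9%, cluster 5 had 23.9% and 26.7%, and cluster 1 had 29.5% and 28.7%. The light chain thus took a larger share in clusters 0 and 8 than in those 4 clusters, without overlap. The order did not follow the cell classes, since cluster 13 (42.7% and 41.9%) and the dendritic cluster 11 (38.1% and 40.4%) lay beside cluster 3 (41.9% and 43.0%) and cluster 2 (35.8% and 38.9%). The dendritic cluster 12, at 47.7% and 61.0%, was as light-chain rich as cluster 0. Capture can differ between the 2 transcripts, so these shares rank clusters and are not protein ratios.

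**Figure D3:**
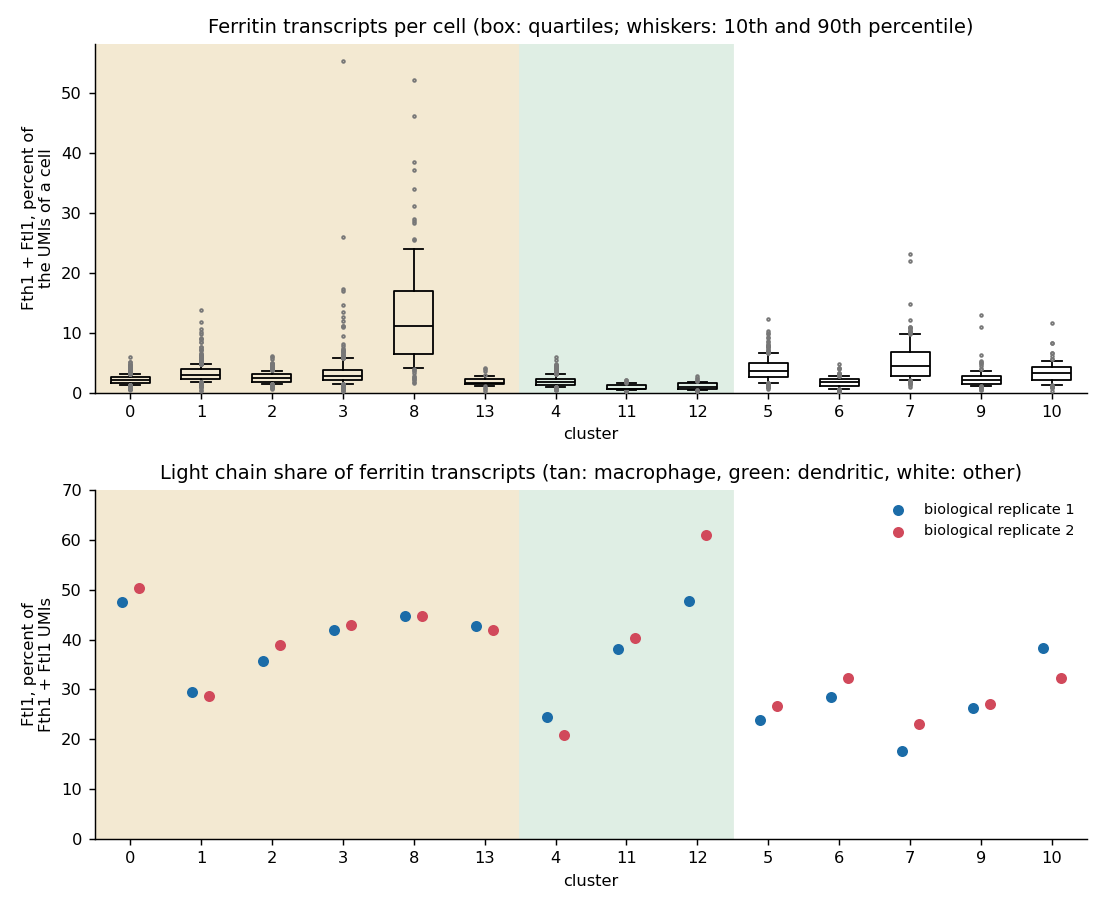
Upper panel: ferritin transcripts (Fth1 and Ftl1) as a percent of the UMIs of each cell, with a box for each cluster (quartiles, whiskers at the 10th and 90th percentile, dots for cells beyond them). Lower panel: Ftl1 as a percent of ferritin UMIs in each biological replicate, 44.8% in cluster 8 and 17.7% and 23.0% in cluster 7.

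Ferroportin left few counts, with 93 Slc40a1 UMIs in 72 cells (2.40% of all cells). It reached 36.4 and 27.3 CPM in cluster 8 from 4 UMIs, 24.4 and 14.1 CPM in cluster 3 from 6 UMIs, and 14.7 and 14.3 CPM in cluster 0 from 46 UMIs. Cluster 8 lay above all others, on counts too few to rank it firmly. Cluster 1 had 1.79 and 1.35 CPM from 5 UMIs, below cluster 0 and cluster 2 in both replicates. Clusters 5, 9, 10, 12 and 13 had 0 UMIs. Against a floor of 3 counts, Slc40a1 was at least 2.05-fold lower in cluster 13 than the 15.6 CPM averaged by the other macrophage clusters, and no fold could be set for cluster 10 or cluster 12.

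The macrophage class was then set against the dendritic class with edgeR's quasi-likelihood test, which averages log levels over clusters and blocks on the replicate, across 5090 genes. Of the 9 genes, 7 passed the filter on low counts, and Slc40a1 and Tfrc did not. At a Benjamini-Hochberg adjusted p under 0.05, 6 of the 7 were higher in the macrophage clusters and 0 lower. Among all genes tested, 14.5% were higher and 23.6% lower. The median log2 fold change of the 7 was 1.50, beside -0.14 over all genes.

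Slc11a1 averaged 125 and 116 CPM over the macrophage clusters in replicates 1 and 2, against 10.2 and 21.4 CPM over the dendritic clusters. The fitted log2 difference was 2.91 ± 0.25 (standard error, as for all fold changes below, with adjusted p = 9.17e-11), and no macrophage cluster overlapped a dendritic one. Blvrb averaged 413 and 432 CPM over the macrophage clusters, against 78.0 and 110.3 CPM over the dendritic clusters. The log2 fold change came to 1.97 ± 0.15 (adjusted p = 1.32e-11), although cluster 13 lay among the dendritic clusters. With cells thinned to 500 UMIs, 0 of the 41 cells of cluster 13 had a Blvrb UMI, so that fit gave no usable call. Hmox1 averaged 399 and 436 CPM over the macrophage clusters, against 109 and 133 CPM over the dendritic clusters. On the log2 scale the difference was 1.85 ± 0.23 (adjusted p = 2.1e-07), with overlap, since clusters 1, 3 and 8 lay at the level of clusters 4 and 11.

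Ftl1 averaged 16868 and 18685 CPM over the macrophage clusters, against 4592 and 5188 CPM over the dendritic clusters, a log2 fold change of 1.50 ± 0.09 (adjusted p = 1.78e-14). The lowest macrophage value, 7741 CPM in cluster 13, lay just above the highest dendritic value, 7628 CPM in cluster 12. Fth1 averaged 23685 and 25567 CPM over the macrophage clusters, against 8769 and 8587 CPM over the dendritic clusters, a log2 fold change of 1.34 ± 0.08 (adjusted p = 1.42e-14). Here the classes overlapped, since clusters 0 and 13 lay below cluster 4. Blvra averaged 84.9 and 83.7 CPM over the macrophage clusters, against 39.3 and 31.2 CPM over the dendritic clusters, a log2 fold change of 1.36 ± 0.20 (adjusted p = 3.23e-06).

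Cd163 averaged 260.5 and 225 CPM over the macrophage clusters, against 41.4 and 53.1 CPM over the dendritic clusters. The fit gave it no usable fold change (adjusted p = 0.984), because cluster 8 had no UMI and so no log level. Without the shallow clusters 3 and 8 the fit took in 8224 genes and all 9 of these. Then 7 of the 9 were higher in the macrophage clusters and 0 lower, beside 19.1% and 13.4% of all genes. Cd163 was now among them, with a log2 fold change of 1.60 ± 0.28 (adjusted p = 2.48e-05), and Hmox1 had 2.41 ± 0.17. The ferritin differences were smaller there, 0.87 ± 0.07 for Fth1 and 0.94 ± 0.08 for Ftl1, against 1.34 and 1.50 with cluster 8 in the class.

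**Figure D4:**
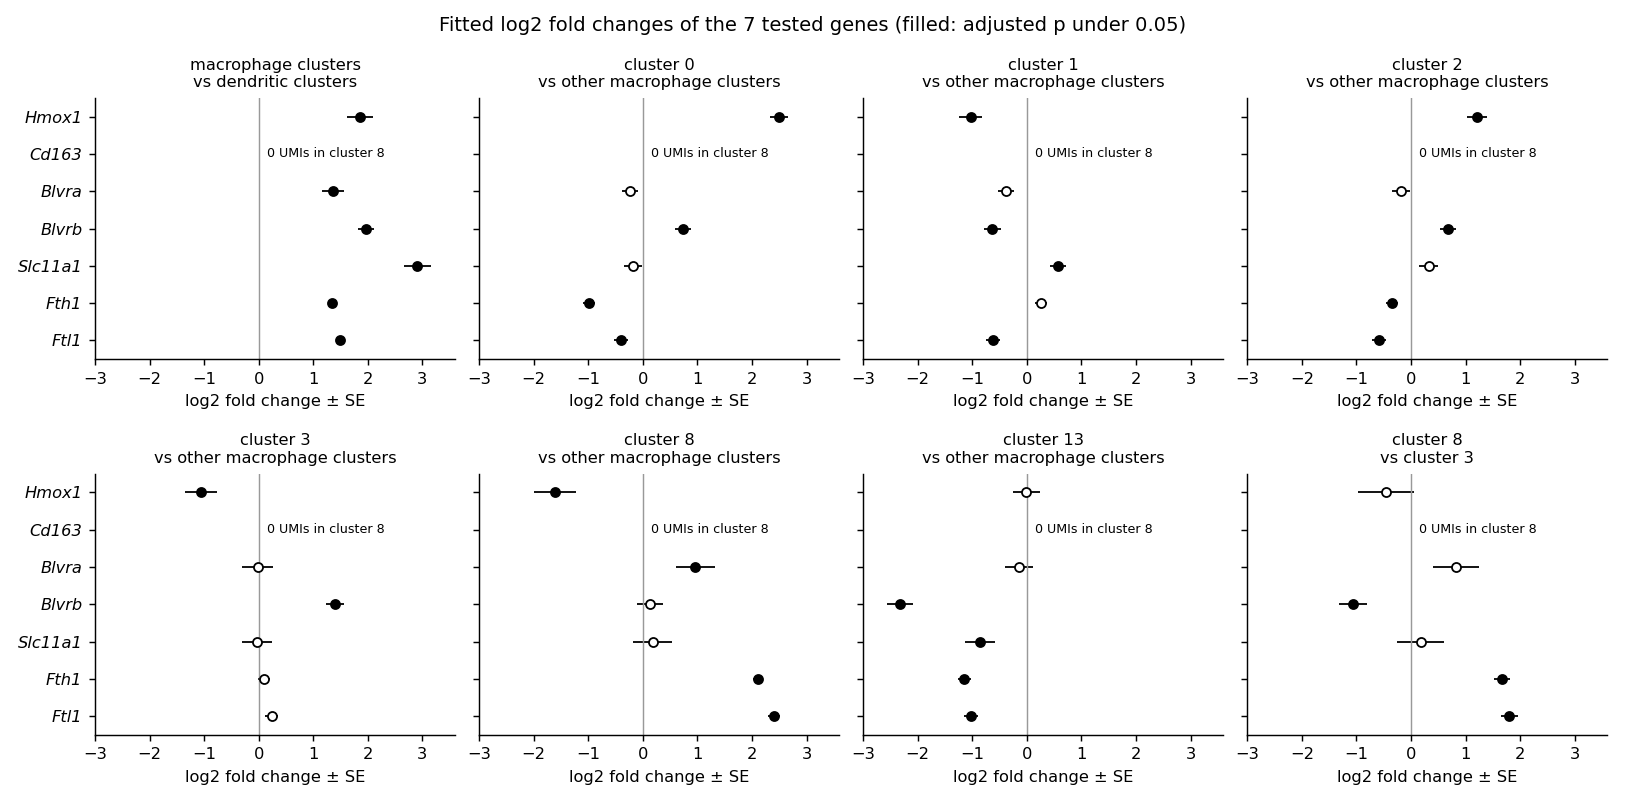
Fitted log2 fold changes with their standard errors for the 7 tested genes in 8 comparisons, filled where the adjusted p is under 0.05. The macrophage clusters lie above the dendritic ones for 6 genes, and cluster 8 stands above the other macrophage clusters for Fth1 (2.11) and Ftl1 (2.40). Cd163 is not drawn because cluster 8 had 0 UMIs of it.

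Each macrophage cluster was next compared with the mean of the other macrophage clusters in the same fit. In cluster 0, 3 of the 7 tested genes were higher and 2 lower, beside 32.7% and 12.3% of all genes. Hmox1 was higher there (1091 and 1349.7 CPM in cluster 0, against 261 and 253 CPM over the others), with a log2 fold change of 2.50 ± 0.16 (adjusted p = 6.88e-13), and the groups did not overlap. Blvrb was higher by 0.74 ± 0.14 (adjusted p = 0.00013). The call of Cd163 rests on a cluster at 0 UMIs, and without clusters 3 and 8 it was higher in cluster 0 by 3.25 ± 0.18 (adjusted p = 2.65e-15). Fth1 was lower in cluster 0, with 11525 and 10726 CPM against 26117 and 28535 CPM over the others, a log2 fold change of -0.99 ± 0.12 (adjusted p = 9.37e-08). Ftl1 was lower by a log2 fold change of -0.40 ± 0.13 (adjusted p = 0.0109), which turned to 0.20 ± 0.12 without clusters 3 and 8 and lost its call without library 1-2 (adjusted p = 0.0613) and with cells thinned to 500 UMIs (adjusted p = 0.114). In the fit without clusters 3 and 8, cluster 0 was also higher in Tfrc (2.41 ± 0.37, adjusted p = 5.69e-06) and in Slc40a1 (adjusted p = 0.00213, with no fold given because cluster 13 was at 0), 5 of 9 genes higher in all and 1 lower, beside 10.8% and 8.57% of all genes.

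In cluster 2, Hmox1 and Blvrb were higher than the mean of the other macrophage clusters. Of the 7 genes, 3 were higher and 2 lower, beside 29.5% and 13.1% of all genes. Hmox1 had 487 and 652 CPM in cluster 2, against 382 and 393 CPM over the others, a log2 fold change of 1.21 ± 0.18 (adjusted p = 3.95e-06). Cluster 0 lay above it and the other clusters below. Blvrb was higher by 0.69 ± 0.15 (adjusted p = 0.000448), with 523 and 524 CPM in cluster 2. Clusters 0 and 3 lay above cluster 2 for Blvrb in both replicates, and clusters 1, 8 and 13 below. Without clusters 3 and 8, 5 of 9 genes were higher and 0 lower, beside 9.48% and 4.62% of all genes, with Cd163 at 2.61 ± 0.19 (adjusted p = 1.8e-12). The lower calls of Ftl1 (-0.59 ± 0.13) and Fth1 (-0.34 ± 0.11) turned to 0.10 ± 0.12 and 0.26 ± 0.10 without clusters 3 and 8. The call of Fth1 was also lost without library 1-1 (adjusted p = 0.0646) or 1-2 (adjusted p = 0.0772), with the scaling of DESeq2 (0.0562), with no filter (0.178) and with thinned cells (0.125).

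In cluster 1, the macrophages without a subtype, Slc11a1 was higher and Hmox1, Blvrb and Ftl1 lower than the mean of the other macrophage clusters. Of the 7 genes, 1 was higher and 3 lower, beside 25.0% and 4.95% of all genes. Slc11a1 had 157 and 171 CPM in cluster 1, against 118 and 105 CPM over the others, a log2 fold change of 0.57 ± 0.15 (adjusted p = 0.00543). The values of cluster 8 (164 and 109 CPM) overlapped those of cluster 1. Hmox1 was lower, with 159 CPM in both replicates of cluster 1 against 447 and 491 CPM over the others, a log2 fold change of -1.03 ± 0.21 (adjusted p = 0.000323). With cells thinned to 500 UMIs that call was lost, at -0.60 (adjusted p = 0.176). Blvrb was lower by a log2 fold change of -0.64 ± 0.16 (adjusted p = 0.00263). Its call was lost without library 1-2 (adjusted p = 0.256) and without clusters 3 and 8 (-0.23, adjusted p = 0.465). With cells thinned to 500 UMIs the fitted value was 0.41 (adjusted p = 0.752). Cluster 13 had 0 Blvrb UMIs in the thinned cells, so that value is not a fold. The lower call of Ftl1 (-0.62 ± 0.13) turned to 0.09 ± 0.12 without clusters 3 and 8. In that fit 2 of 9 genes were higher and 2 lower, beside 8.80% and 3.98% of all genes. Fth1 was higher in cluster 1 by 0.96 ± 0.09 (adjusted p = 6.32e-10), beside the main value of 0.26 ± 0.11 (adjusted p = 0.063), and Cd163 was lower by a log2 fold change of -3.61 ± 0.32 (adjusted p = 1.16e-10).

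In cluster 3, Blvrb and Hmox1 lay on opposite sides of the mean of the other macrophage clusters. Of the 7 genes, 2 were higher and 1 lower than in the other macrophage clusters, beside 14.3% and 6.23% of all genes. Blvrb was higher, with 675 and 792 CPM in cluster 3 against 361 and 360.4 CPM over the others, a log2 fold change of 1.40 ± 0.17 (adjusted p = 2.5e-07), and no other cluster overlapped it. Cd163 averaged 343 CPM in cluster 3, against 223 CPM over the others with cluster 8 at 0. Hmox1 was lower, with 236 and 80.1 CPM in cluster 3 against 432 and 507 CPM over the others, a log2 fold change of -1.06 ± 0.29 (adjusted p = 0.00781). The replicates of cluster 3 spanned those of clusters 1 and 8, and the call was lost without library 2-1 (adjusted p = 0.0735). Fth1 and Ftl1 did not pass the test, at 0.10 ± 0.11 and 0.23 ± 0.12.

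Cluster 8, the foamy cluster, had the largest ferritin difference of the 6 macrophage clusters. Of the 7 genes, 3 were higher and 2 lower than in the other macrophage clusters, beside 8.39% and 19.4% of all genes. Fth1 had 61935 and 74232 CPM in cluster 8, against 16035 and 15834 CPM over the others, a log2 fold change of 2.11 ± 0.10 (adjusted p = 1.21e-16). Ftl1 had 50305 and 60158 CPM in cluster 8, against 10180.4 and 10390.2 CPM over the others, a log2 fold change of 2.40 ± 0.11 (adjusted p = 7.07e-17). Neither gene overlapped another cluster. The median over all genes was -0.78 in this comparison, and library totals and scaling computed without Fth1 and Ftl1 changed no call. Blvra was higher by 0.96 ± 0.35 (adjusted p = 0.041), a call lost without library 1-1, 1-2 or 2-2 (adjusted p of 0.0575, 0.0797 and 0.451). Hmox1 was lower, with 91.0 and 137 CPM in cluster 8 against 461 and 496 CPM over the others, a log2 fold change of -1.61 ± 0.39 (adjusted p = 0.0026, and 0.157 without library 1-2). Blvrb (0.13 ± 0.24) and Slc11a1 (0.18 ± 0.36) did not pass the test.

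Cluster 8 and cluster 3 share shallow cells and low Malat1, so they were also set against each other. Of the 7 genes, 2 were higher and 2 lower in cluster 8, beside 2.71% and 7.90% of all genes. Fth1 was higher in cluster 8 by 1.67 ± 0.14 (adjusted p = 8.01e-10) and Ftl1 by 1.80 ± 0.16 (adjusted p = 1.95e-09). Blvrb was lower, with 364 and 423 CPM in cluster 8 against 675 and 792 CPM in cluster 3, a log2 fold change of -1.06 ± 0.26 (adjusted p = 0.00727). That call was lost without library 1-2 (adjusted p = 0.229) and with the scaling of DESeq2 (adjusted p = 0.0785). Cd163 had 0 UMIs in cluster 8, against 407 and 278 CPM in cluster 3. Hmox1 did not pass the test, at -0.46 ± 0.50.

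In cluster 13, the cavity-like macrophages, 0 of the 7 genes were higher and 4 lower than in the other macrophage clusters, beside 15.3% and 6.19% of all genes. Blvrb had 122 and 49.3 CPM in cluster 13, against 471 and 509 CPM over the others, a log2 fold change of -2.32 ± 0.24 (adjusted p = 1.21e-08). It lay below every other macrophage cluster. Fth1 was lower by a log2 fold change of -1.15 ± 0.12 (adjusted p = 1.51e-08) and Ftl1 by -1.03 ± 0.13 (adjusted p = 8.11e-07). Without clusters 3 and 8 these were -0.65 ± 0.10 and -0.40 ± 0.13, and 6 of 9 genes were lower and 0 higher, beside 9.02% and 8.62% of all genes. The call of Slc11a1 (-0.86 ± 0.28, adjusted p = 0.0245) was lost when any 1 of the 4 libraries was left out, with adjusted p from 0.05002 to 0.241. Cluster 13 held 28 cells of replicate 1 and 13 of replicate 2.

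The median log2 fold change of the 7 genes was -0.17 in cluster 0, -0.62 in cluster 1, 0.32 in cluster 2 and 0.10 in cluster 3, beside 0.30, 0.21, 0.24 and 0.17 over all genes. It was 0.18 in cluster 8, -0.86 in cluster 13 and 0.18 in cluster 8 against cluster 3, beside -0.78, 0.20 and -0.58 over all genes. With Cd163 at a floor of 3 counts in cluster 8, the median in cluster 13 became -1.03. With the size factors of DESeq2 the median over all genes moved to -0.09 in cluster 3, -0.67 in cluster 8 and -0.26 in cluster 8 against cluster 3.

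Haemoglobin transcripts mark red cells, a source of haem for macrophages. Where the haem handled by these cells came from was not measured. A total of 4 cells carried over 1% of their UMIs in haemoglobin genes, 1 each in clusters 0, 1, 3 and 7, and these single cells held 4345 of 4409, 7000 of 7078, 3400 of 3433 and 3367 of 3376 haemoglobin UMIs of their clusters. All 36 calls of the 9 genes were kept when these cells were left out. Of the list of 8 erythroid markers 4 were tested, and 0 were called between the classes, beside 14.5% higher and 23.6% lower of all genes. In cluster 1, 3 were higher and 0 lower, beside 25.0% and 4.95% of all genes. In cluster 3, 4 were higher and 0 lower, beside 14.3% and 6.23%. The haemoglobin genes Hba-a1 and Hbb-bt had 0 UMIs in cluster 13, and Hba-a2 had 0 in cluster 8. Without the 4 cells 1 marker was left to test, which was higher in cluster 3.

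Other genes of iron handling were read as a list of 30, of which 14 passed the filter. Between the classes, 3 were higher in the macrophage clusters and 2 lower, beside 14.5% and 23.6% of all genes. The median log2 fold change was 0.69, beside -0.14 over all genes, or 0.86 with 3 counts in place of 0 for the 4 genes that had no UMI in some compared cluster. Lrp1, a receptor for haem bound to haemopexin, averaged 117 and 114 CPM over the macrophage clusters, against 34.8 and 35.3 CPM over the dendritic clusters (log2 fold change 2.14 ± 0.29, adjusted p = 7.57e-07). Hmox2, the constitutive haem oxygenase, was higher by 0.91 ± 0.17 (adjusted p = 7.15e-05), and Slc48a1, a haem transporter of the phagolysosome, by 0.90 ± 0.28 (adjusted p = 0.0114). Pcbp1 (-0.46 ± 0.14) and Pcbp2 (-0.43 ± 0.11), chaperones that deliver iron to ferritin, were lower. Without clusters 3 and 8, 8 of 16 tested were higher and 0 lower, beside 19.1% and 13.4% of all genes. Lrp1 (2.43 ± 0.24) and Hmox2 (0.69 ± 0.17) were still called there, while Slc48a1 (adjusted p = 0.0576), Pcbp1 (0.249) and Pcbp2 (0.0814) were not.

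Hmox2 and Hmox1 were called in opposite directions in cluster 3, and the difference between the genes was not tested. Hmox2 was higher there, with 252 and 184 CPM against 118 and 131 CPM over the others (0.93 ± 0.22, adjusted p = 0.0022), where Hmox1 was lower. Like Hmox1, it was lower in cluster 1, with a log2 fold change of -0.66 ± 0.16 (adjusted p = 0.00261, and 0.148 without clusters 3 and 8). Of the 14 tested genes of the list, cluster 0 had 5 higher and 1 lower, beside 32.7% and 12.3% of all genes. Cluster 1 had 4 and 2 (beside 25.0% and 4.95%), cluster 2 had 8 and 1 (29.5% and 13.1%), and cluster 3 had 2 and 1 (14.3% and 6.23%). Cluster 8 had 0 and 2 (8.39% and 19.4%), cluster 13 had 4 and 1 (15.3% and 6.19%), and cluster 8 against cluster 3 had 0 and 1 (2.71% and 7.90%). Most of these counts lay near the shares of all genes, and the 8 of 14 in cluster 2 lay farthest from its share. Those 8 include Cp, Steap4, Slc25a37 and Slc39a14, which had no UMI in some compared macrophage cluster. Without clusters 3 and 8, cluster 2 had 5 of 16 higher and 1 lower, beside 9.48% and 4.62% of all genes. For Cp, Steap4, Slc25a37 and Slc39a14, levels are given instead of folds. The ferroxidase gene Cp had 86.0 and 77.5 CPM in cluster 0, 93.0 and 73.8 CPM in cluster 2 and 97.7 and 33.0 CPM in cluster 3, against 0 in cluster 13. The metalloreductase gene Steap4 had 41.2 and 39.7 CPM in cluster 2 and 16.4 and 16.8 CPM in cluster 0, against 0 in clusters 8 and 13. The mitochondrial iron importer gene Slc25a37 had 57.3 and 59.7 CPM in cluster 0 and 61.1 and 41.9 CPM in cluster 2, against 0 in cluster 8.

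The zinc and iron importer gene Slc39a14 had 88.4 and 57.5 CPM in cluster 13 and 30.4 and 26.3 CPM in cluster 1, against 0 in clusters 3 and 8. Genes with UMIs in every compared cluster moved as well. Slc11a2, the transporter that carries iron out of endosomes, was higher in cluster 2 by 2.25 ± 0.32 (adjusted p = 1.54e-06) and in cluster 1 by 1.66 ± 0.32 (adjusted p = 0.000184). Hfe, a regulator of iron uptake, was higher in cluster 0 by 0.71 ± 0.17 (adjusted p = 0.00134) and lower in cluster 8 by a log2 fold change of -1.58 ± 0.45 (adjusted p = 0.00983). Fbxl5, which senses iron and turns over an iron regulatory protein, was higher in cluster 0 by 0.99 ± 0.30 (adjusted p = 0.00813), which turned to -0.11 ± 0.17 without clusters 3 and 8, where Hfe (0.43 ± 0.15, adjusted p = 0.0373) was still called.

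**Figure D5:**
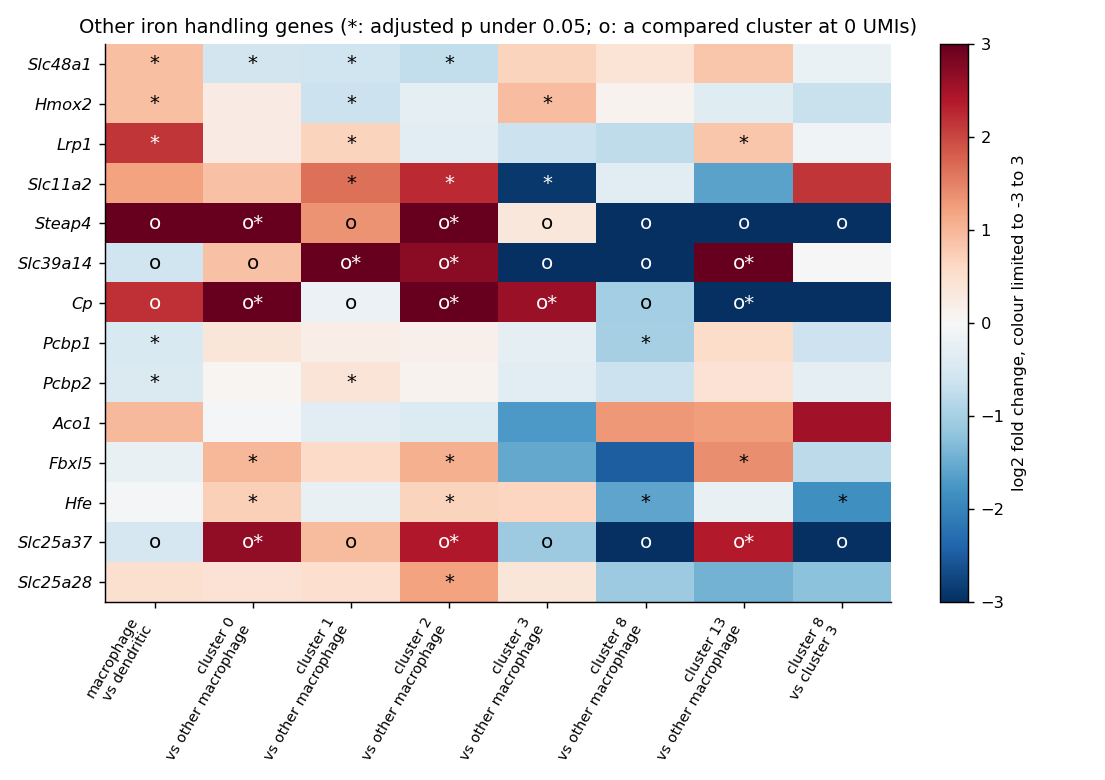
Log2 fold changes of the 14 tested genes of the iron list (rows) in 8 comparisons (columns), with the colour limited to between -3 and 3. A star marks an adjusted p under 0.05, and a circle marks a gene with 0 UMIs in some compared cluster, whose fitted value is not a fold. Lrp1 is higher in the macrophage clusters by 2.14, and Hfe is lower in cluster 8 by a log2 fold change of -1.58.

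Haem synthesis was mostly under the filter, with 1 of 8 genes tested. Alas1, which catalyses its first step, averaged 20.5 and 34.96 CPM over the macrophage clusters, against 11.8 and 14.2 CPM over the dendritic clusters, with 0 UMIs in cluster 12 and a call of higher (adjusted p = 0.0134). Between macrophage clusters it was called only in other settings, higher in cluster 1 without clusters 3 and 8 (0.90 ± 0.25, adjusted p = 0.0121) and lower in cluster 2 without the cells rich in haemoglobin (-0.93 ± 0.38, adjusted p = 0.0476). Hmox1 and the ferritin genes are known targets of the factor NRF2 and its repressor BACH1, so a list of 15 genes of that pathway was read beside them. Of the 14 tested, 1 was higher in the macrophage clusters and 0 lower, beside 14.5% and 23.6% of all genes. Without clusters 3 and 8 these were 8 and 1, beside 19.1% and 13.4%. Prdx1, a peroxidase, averaged 808 and 963 CPM over the macrophage clusters, against 321 and 342 CPM over the dendritic clusters (0.98 ± 0.12, adjusted p = 1.1e-07). In cluster 8, 2 were higher and 5 lower, beside 8.39% and 19.4% of all genes. Prdx1 was higher there by 2.48 ± 0.15 (adjusted p = 1.77e-13), with 2184 and 3290 CPM in cluster 8 against 533 and 497 CPM over the others, and Gpx4, a lipid peroxidase, by 1.26 ± 0.19 (adjusted p = 1.07e-05).

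The lower genes of that list in cluster 8 were Bach1 (-4.60 ± 0.79), Mafg, Mafk, Nfe2l2 (-2.23 ± 0.34), which encodes NRF2, and Sqstm1. Mafk had 0 UMIs in cluster 8, and with a floor of 3 counts there its log2 difference was -0.74. The median of the 14 tested genes in cluster 8 was -0.88, beside -0.78 over all genes. It became -0.016 with 3 counts in place of 0 for the 2 genes that had no UMI in some compared cluster. In cluster 3, 1 was higher and 5 lower, beside 14.3% and 6.23% of all genes, with Nfe2l2 at -1.70 ± 0.25. Clusters 0, 1 and 2 had 5, 7 and 7 higher, beside 32.7%, 25.0% and 29.5% of all genes, and 2, 1 and 1 lower, beside 12.3%, 4.95% and 13.1%. Nfe2l2 was at 0.60 ± 0.15, 1.50 ± 0.14 and 1.60 ± 0.14 in them. Cluster 13 had 2 higher and 2 lower, beside 15.3% and 6.19%. The calls of cluster 0 hung on clusters 3 and 8: without them 0 were higher and 5 lower, beside 10.8% and 8.57% of all genes, with Nfe2l2 at -0.51 ± 0.13 (adjusted p = 0.00491). Against all other macrophage clusters, Nfe2l2 was thus lower in both clusters where Hmox1 was lower and Malat1 scarce, and higher in cluster 1, where Hmox1 was lower too. The part of depth and Malat1 in these differences was not tested.

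A list of 8 genes of the red pulp macrophage programme of the spleen, where red cells are cleared, holds Cd163, Hmox1 and Slc40a1 and is no separate support for them. Of 5 tested, 4 were higher in the macrophage clusters and 0 lower, beside 14.5% and 23.6% of all genes. Hpgd, which inactivates prostaglandins, was higher by 1.98 ± 0.42 (adjusted p = 0.000376), Axl, an efferocytosis receptor, by 1.88 ± 0.28 (adjusted p = 3.95e-06), and Vcam1 by 1.69 ± 0.45 (adjusted p = 0.00352). Hpgd had 529 and 688 CPM in cluster 3 and 398 and 540.0 CPM in cluster 0, against 18.2 and 13.7 CPM in cluster 8. Its means over these 3 clusters stood in the same order as those of Blvrb. Over the 5 tested, cluster 0 had 3 higher and 1 lower (beside 32.7% and 12.3% of all genes), and cluster 2 had 4 and 0 (29.5% and 13.1%). Cluster 3 had 2 and 1 (14.3% and 6.23%), and cluster 8 had 0 and 3 (8.39% and 19.4%). Cluster 1 had 1 and 1 (25.0% and 4.95%), cluster 13 had 0 and 1 (15.3% and 6.19%), and cluster 8 against cluster 3 had 0 and 2 (2.71% and 7.90%).

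The 9 genes were also set beside all genes by pattern over the 14 clusters, with Pearson's r of log2(mean CPM + 10) among 4539 genes that reached 50 CPM in both replicates of some cluster. These are descriptions over clusters that share libraries and differ in depth. The nearest patterns to Cd163 were C4b (0.97), Lyve1 (0.97) and Chp2 (0.96), and to Hmox1 they were Hip1 (0.91), Rab1a (0.91) and Fam63b (0.90). Blvrb ran closest to Itm2b (0.96), C1qc (0.94) and Igf1 (0.94), and Blvra to Pld3 (0.89), Lamp1 (0.89) and Pon2 (0.84). Slc11a1 had Sdcbp (0.94), Plin2 (0.90) and Tpd52 (0.87) nearest. Fth1 had Atp6v1e1 (0.90), Cstb (0.90) and Rcbtb2 (0.89), and Ftl1 had Gm10116 (0.99), Creg1 (0.95) and Atp6v0d2 (0.91). Gm10116 is listed in RefSeq as a synonym of Ftl1-ps1, a pseudogene copy of Ftl1. It had 309 and 560 CPM in cluster 8, against 91.7 and 98.4 CPM in cluster 0, so Ftl1 is uncertain to the extent that reads were split between the copies. Among the 9 genes themselves, Blvra and Ftl1 (0.78), Fth1 and Ftl1 (0.75), Slc11a1 and Fth1 (0.75) and Hmox1 and Cd163 (0.67) were closest, while Hmox1 and Ftl1 had 0.07.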

How the data were processed

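The authors mapped 3′ single-cell reads to mm10 with Cell Ranger 3.0.2, per the labels' protocols, and used Seurat 3.1.1, per the submitters' processing notes; no source used here gives the cell filters, doublet handling or clustering settings. The deposited counts are raw UMI counts per gene and cell. The deposited natural log table (ln) of the authors matched them for the 9 genes and was used only for that check; their deposited percent of mitochondrial counts was not tested. Clusters are the authors' numbers. An alternative meant for doublets dropped the deepest 5% of cells per library. It left all cells of clusters 3, 7, 8 and 10 in place (47 and 58 in cluster 8), so doublets in those clusters were not tested.

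Counts were summed per cluster and biological replicate, with at least 10 cells a sum, and 18 sums (6 macrophage and 3 dendritic clusters) were fitted with edgeR 4.0.16 (filterByExpr, TMM, glmQLFit, glmQLFTest, two-sided) with cluster terms and the replicate as a block, since clusters of a replicate come from the same animals. Benjamini-Hochberg values cover all 5090 genes. DESeq2 1.42.0 gave alternatives. No source used here says which animals the replicates hold. With the replicate as a block, p-values measure how differences between clusters vary between these 2 replicates, on 8 residual degrees of freedom. They do not measure the spread between animals. On simulated counts for the comparison of the classes, the step called 82.2% of 90 genes changed by a log2 fold of 1, 97.7% of 87 changed by 2 and 0.191% of 4179 unchanged, on 4356 genes. Each simulated gene had the same mean in all clusters of a class, and the clusters were not drawn from the simulated counts. The rates therefore do not cover differences within a class or clusters drawn from the compared counts. Intervals are exact Clopper-Pearson, and the floor is 3 counts; both cover counting error only.

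The 9 genes and the lists were chosen with earlier results of these data known. All 9 are named, with up to 6 called genes of each list by log2 fold change between the classes, up to 4 in other comparisons, and the 3 nearest patterns; some called genes of the lists are given by counts alone.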

Additional observations from a re-analysis of the deposited data

Results flagged for a closer look

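Values of the 9 genes were compared over the 4 libraries, for all cells and for the 7 clusters with at least 10 cells in every library. In 72 such groups of 4 values, 3 had a library far from the others, and chance flags about 1 in 20 groups. Fth1 over all cells had 16445 CPM in library 2-1, while the other 3 libraries had 17689 to 17825 CPM. Slc11a1 in the neutrophil-like cluster 7 had 312 CPM in library 2-2, while the others had 63.2 to 103 CPM. Tfrc in cluster 4 had 4.77 CPM in library 2-2, while the others had 8.94 to 9.32 CPM, from a total of 18 UMIs in that cluster.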

How the results depend on the processing

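Of the 36 calls of the 9 genes, all 36 were kept in the fit without the replicate block (6 calls between the classes and 5 in cluster 8, as with it), with a filter of 50 CPM, with totals computed without ferritin and without the cells rich in haemoglobin. DESeq2's test, all clusters in the fit, and leaving out the cells with the most UMIs kept 35 each, DESeq2's size factors and 4 libraries as samples 34 each, and no filter 33. Leaving out library 1-1, 1-2, 2-1 or 2-2 kept 33, 29, 34 and 34. Without library 1-2, clusters 8, 11, 12 and 13 rest on replicate 2 alone, and without library 2-2 clusters 11, 12 and 13 rest on replicate 1 alone, and the lone sample is assumed to vary like the others. The count of calls in cluster 8 then ranged from 3 to 5. With cells thinned to 500 UMIs, 31 of the 36 calls could be tested and 26 were kept, with 3 genes called between the classes and 1 in cluster 1, where Blvrb turned to 0.41. Cluster 13 had 0 Blvrb UMIs in the thinned cells, so neither that value nor the thinned value between the classes is a fold. Without clusters 3 and 8, 19 of 24 were kept, and Ftl1 turned to 0.20 in cluster 0, 0.092 in cluster 1 and 0.10 in cluster 2, where Fth1 turned to 0.26. The fitted value of Cd163 between the classes, which rests on a cluster at 0 UMIs, turned to -0.030 with 4 libraries as samples and ranged from -0.0073 to 2.09 when 1 library was left out, lowest without library 1-1. The cause of these shifts was not tested.

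The limits are 2 replicates, few UMIs of Slc40a1 and Tfrc, and cells of clusters 3, 8 and 10 under 1000 UMIs at the median, where an absent transcript is only below a floor.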
